A study of Mus musculus with 20 samples.

Results

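The effect of a neural stem cell graft on gene expression in the host striatum was measured by comparing all 10 mice that received neural stem cells (NSC) with all 10 mice that received vehicle (Veh), with the 2 genotypes pooled and genotype kept as a covariate. The groups were WT-Veh, ASO-Veh, WT-NSC and ASO-NSC, with 5 mice each and 1 array per mouse, so the comparison used all 20 arrays of the series. ASO mice carry the line D transgene, in which a PDGF-β promoter drives over-expression of wild-type human α-synuclein, and WT mice are littermates that lack it. All mice were kept on a congenic C57B6/J background, were labelled 12 months of age and were examined about 1 month after injections into the striatum. NSC mice received GFP-expressing mouse neural stem cells taken from the hippocampus and cortex of newborn syngeneic GFP-transgenic mice and expanded in culture, and Veh mice received saline. The striatum was microdissected with the graft in place, so each array can hold RNA of the host tissue, of any surviving grafted cells and of cells that entered the tissue, and these sources cannot be told apart. Each value is a log2 intensity of 1 transcript cluster after robust multiarray averaging (RMA), so a difference of 1 is a doubling. Of 41345 transcript clusters, the 23525 with exactly 1 gene symbol, here called rows, were tested, and they stand for 22184 genes.

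Cells that sense viral nucleic acid or cytokines release interferons, and interferon receptors then act through STAT proteins and Irf9 on genes that carry an interferon-stimulated response element in their promoters. The products of these genes include immunity-related GTPases, RNA sensors and degraders, chemokines, and the MHC class I machinery that displays peptides to cytotoxic T cells. In the brain, microglia and astrocytes are the main cells that show this program, and astrocytes close to an injury or a needle track raise Gfap. Complement factors, which tag material for removal by microglia, are often raised with it.

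Litter and treatment were closely tied. Veh mice came from litters 1, 3 and 5 (4, 2 and 4 mice) and NSC mice from litters 3, 4 and 6 (1, 4 and 5 mice). Only litter 3 held both treatments, with WT-NSC mouse 53 and the ASO-Veh mice 46 and 47, and outside that litter the treatment and the litter cannot be told apart. Sex-linked genes contradicted the labelled sex in 5 arrays, those of Veh mice 45, 47, 61 and 62 and of NSC mouse 54. Whether these sex labels are wrong or the samples were exchanged could not be told, so the group labels of these 5 mice are less certain. RNA integrity numbers ran from 9.2 to 9.7 in both treatments. The label striatum was checked against markers of spiny projection neurons, the principal neurons of the striatum, and the rows of that list had a median level of 10.8 log2 units against 6.77 for all rows. The dopamine receptor Drd2 lay at 11.17 log2 units in the median Veh mouse and 11.12 in the median NSC mouse. The study marked ASO-NSC mouse 59 as an outlier in quality control and left it out of its network. This mouse also stood apart in tissue markers, as given further on, and the main counts are therefore given with and without it. Over the whole array, ASO-Veh mouse 47 was about as far from the other mice. It had 99 rows more than 1 log2 unit from the row median and a mean correlation of 0.99076. Mouse 59 had 92 such rows and a mean correlation of 0.99017. Choroid plexus markers also differed in level between treatments, without passing the test. Ttr, the transport protein made in bulk by choroid plexus, had a lowest, median and highest level of 7.74, 8.30 and 12.78 log2 units in Veh mice and 7.99, 12.33 and 12.69 in NSC mice. Its difference of 1.66 log2 units (standard error 0.79) did not pass the test (adjusted p = 0.232 from limma).

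In NSC mice, 432 rows were higher and 114 rows were lower than in Veh mice at an adjusted p under 0.05 from limma, which is 1.84 and 0.485 percent of all rows tested. The largest increases were of interferon-induced genes, and the fallen rows were mostly dim. The median difference over all rows was -8.5e-05 log2 units, and the quartiles were -0.07 and 0.07. Called rows that rose had a median difference of 0.26 log2 units and called rows that fell a median of -0.25. In all, 63 rows rose by more than 0.5 log2 units and 10 by more than 1, whereas 4 rows fell by more than 0.4. All 10 NSC mice lay above all 10 Veh mice in 23 rows (0.0978 percent of all rows), and below them in 3 rows (0.0128 percent). At an unadjusted p under 0.05 there were 2984 higher and 2007 lower rows.

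Without ASO-NSC mouse 59, the counts dropped to 232 higher rows (0.986 percent) and 53 lower rows (0.225 percent). Of these, 225 and 43 were rows also called on 20 arrays. Without the 5 mice whose sex genes went against the label, 58 rows were higher and 5 lower, of which 57 and 1 were called on 20 arrays. With litter as a fixed block, which leaves the comparison within litter 3, only Rsad2 was called (0.97, adjusted p = 0.0221), an interferon-induced enzyme that blocks viral replication, named here after its values were seen. In that fit 368 of the 432 called higher rows were positive and 93 of the 114 called lower rows were negative, and the median of all rows was 0.0040. The rows had been called on arrays that include the mice of litter 3, so part of this agreement in sign comes from the selection. With each array centred on its median, 231 rows were higher and 229 lower, so the share of higher rows among all calls went from 79.1 to 50.2 percent. That centring moved the median of all rows to -0.03. All 546 called rows kept their sign, but their medians after centring were 0.23 and -0.28, so a shift of this size could turn few of them. The counts also moved with other single mice, from 161 higher and 20 lower rows without WT-Veh mouse 66 to 867 and 301 without WT-Veh mouse 67. The arrays of NSC mice had slightly lower lower-quartiles than those of Veh mice, with medians of 4.83 and 4.89 log2 units, and array medians ran from 6.17 to 6.28 in all.

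**Figure D1:**
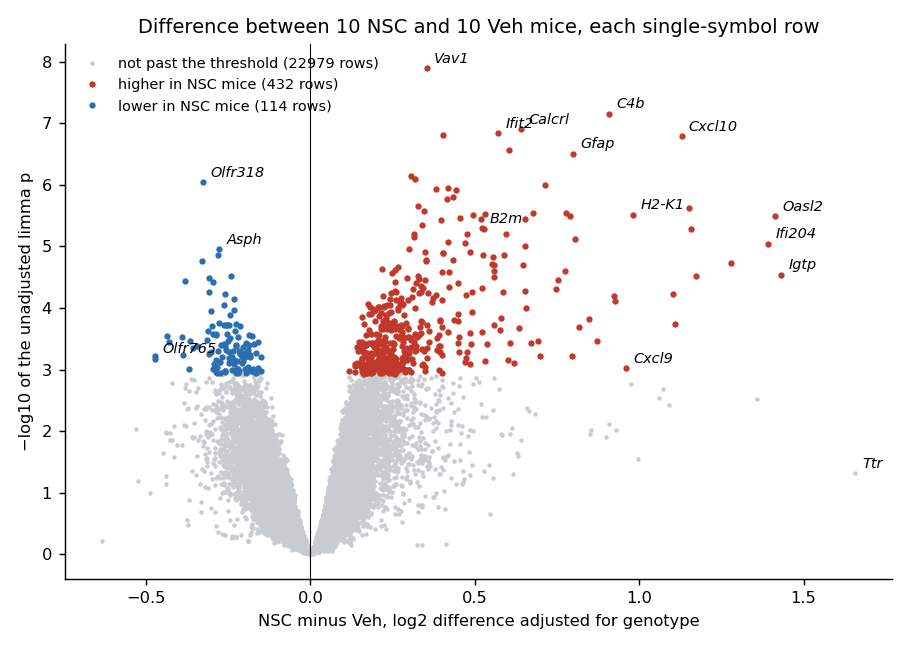
Difference between 10 NSC and 10 Veh mice in log2 units, adjusted for genotype (x axis), against the −log10 of the unadjusted limma p (y axis) for each of the 23525 rows. The 432 rows that were higher are red and reach 1.43 (Igtp), the 114 lower rows are blue and reach -0.47 (Olfr765), and Ttr, at 1.66, did not pass.

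Interferon-inducible GTPases, proteins that attack the vacuoles of intracellular pathogens, showed the largest differences as a list. Of 16 measured rows, 10 rose and none fell, with a median of 0.62 log2 units, against 1.84 percent of all rows rising. The share of all rows that rose depended on level. It was 0.28 percent for rows of 4 to 5 log2 units, 3.34 percent for 7 to 8 and 2.49 percent for 8 to 10. The counts of the later lists are to be read against these shares too. Igtp (transcript cluster 17249980) had a lowest, median and highest level of 5.81, 6.12 and 6.55 log2 units in Veh mice and of 6.72, 7.31 and 9.23 in NSC mice. The 2 ranges did not overlap, and WT-NSC mice 53 and 58 were far above the other NSC mice, at 9.14 and 9.23. The difference of Igtp was 1.43 log2 units or 2.70-fold (standard error 0.27, adjusted p = 0.00954). Irgm2, a regulator of the same GTPase family, ran from 5.94 to 6.66 in Veh mice and from 6.73 to 9.02 in NSC mice, again with no overlap, and it rose by 1.28 (standard error 0.23, adjusted p = 0.00729). Gbp7, a guanylate-binding protein, was also apart in all 20 mice (0.80, standard error 0.14), and Gbp3 rose by 0.75 with 8 of 10 NSC mice above every Veh mouse. Iigp1 and Gm4951, 2 further members, rose by 1.10 and 1.11. Members of this family are close in sequence, so signal could be shared between their probes, and the difference of each single member is less certain than that of the family.

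The promoters of these genes were searched for the response element that interferon-activated factors bind, because the lists with the largest medians were of interferon-induced genes. The element was taken as GAAA, any 2 bases and GAAA, on either strand within the 250 bases upstream of the RefSeq start of each gene (GRCm38.p6). At least 1 match was present in 7.26 percent of the 358 risen genes that had a promoter sequence, in 3.40 percent of all 16994 tested genes with one, and in 2.53 percent of the 79 fallen genes. The STAT element TTCNNNGAA occurred in 7.82, 7.83 and 7.59 percent. A match of letters is not a site of binding. For 6 risen genes the match is shown in capitals with 20 bases on each side, 5′ to 3′ on the strand of the gene. The 5 genes below the first have 1 match each, and the first has a further one, also in capitals.
Ifit1, chr19:34640784-34640833 (+): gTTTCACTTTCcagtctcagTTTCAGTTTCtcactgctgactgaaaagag
Cxcl10, chr5:92349073-92349122 (-): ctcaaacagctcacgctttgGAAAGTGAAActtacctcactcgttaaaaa
Igtp, chr11:58199502-58199551 (+): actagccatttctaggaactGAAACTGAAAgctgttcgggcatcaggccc
Irgm2, chr11:58214893-58214942 (+): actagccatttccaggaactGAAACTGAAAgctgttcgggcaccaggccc
Gbp7, chr3:142530263-142530312 (+): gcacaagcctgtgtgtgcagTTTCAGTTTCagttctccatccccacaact
B2m, chr2:122147528-122147577 (+): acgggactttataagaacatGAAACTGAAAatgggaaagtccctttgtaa
The windows of Igtp and Irgm2 are nearly identical and both genes lie on chromosome 11. In Ifit1 and Gbp7 the matches are on the opposite strand, so the capitals are the reverse complement of the element. These 6 genes were taken from the 26 risen genes with a match. Oasl2, Ifit2, Usp18, Herc6, Parp12, Eif2ak2, H2-K1, C4b, Ccl5, Iigp1 and Gm4951, whose differences are also given in the text, were not among those 26. Of these, Ifit2 and Eif2ak2 had a match to the STAT element, so their promoter sequences were searched and held no match to the response element. A risen gene without a promoter sequence could not be counted among the 26.

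Antiviral effectors and sensors rose in 22 of 37 rows (59.5 percent, against 1.84 percent of all rows) and fell in none, with a median of 0.47 log2 units. Oasl2, a 2′-5′ oligoadenylate synthetase-like protein, ran from 6.46 through a median of 7.20 to 7.84 log2 units in Veh mice and from 7.74 through 8.55 to 9.62 in NSC mice. The ranges overlapped slightly, with 8 of 10 NSC mice above every Veh mouse, and the difference was 1.41 or 2.66-fold (standard error 0.23, adjusted p = 0.00282). Ifit1, which binds viral RNA, ran from 6.54 to 7.56 in Veh and from 7.44 to 9.36 in NSC mice, with the lowest NSC value in mouse 59 and the highest in ASO-NSC mouse 75. Its difference was 1.16 (standard error 0.19, adjusted p = 0.00356). Ifit2, of the same family, rose by 0.57 (standard error 0.07, adjusted p = 0.000636). Ifi204, a DNA sensor, rose by 1.39 but from a very low level, with medians of 2.71 in Veh and 4.03 in NSC mice. Herc6, a ubiquitin ligase, and Parp12, an ADP-ribosyltransferase that restrains viruses, were higher in all 10 NSC mice than in any Veh mouse, by 0.60 and 0.71. Eif2ak2, the kinase that halts translation on sensing double-stranded RNA, rose by 0.65 (standard error 0.11, adjusted p = 0.00528) and Trim25, which activates the sensor Ddx58, by 0.38. Oas1g did not pass (0.98, adjusted p = 0.0601), with medians of 3.96 and 5.08.

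In the list of the ISG15 system and interferon signalling, 6 of 24 rows rose and none fell, with a median of 0.13. The risen rows were 25 percent of the list, against 1.84 percent of all rows. Usp18, which removes the ubiquitin-like ISG15 and damps interferon receptors, rose by 1.15 or 2.22-fold (standard error 0.18, adjusted p = 0.00282). Its Veh levels ran from 6.24 to 7.27 and its NSC levels from 7.14 to 8.60, and the 1 NSC mouse inside the Veh range was mouse 59. Irf9, the DNA-binding part of the interferon-activated complex, rose by 0.56 (standard error 0.11), Ube2l6, the enzyme that conjugates ISG15, by 0.34, and Stat3 by 0.21.

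MHC class I genes rose in 6 of 21 rows (28.6 percent, against 1.84 percent of all rows) and fell in none (median 0.31). H2-K1, a class I heavy chain, had a lowest, median and highest level of 7.80, 8.09 and 8.59 log2 units in Veh mice and of 8.62, 8.91 and 9.92 in NSC mice. The groups were apart by a narrow margin, and the difference was 0.98 or 1.97-fold (standard error 0.16, adjusted p = 0.00282). B2m, the light chain shared by all class I molecules, is a bright row and ran from 11.82 to 12.28 in Veh and from 12.29 to 12.98 in NSC mice (0.52, standard error 0.09). Erap1, which trims peptides, rose by 0.40 and Tapbp, which loads them, by 0.32. MHC class II genes, used by macrophages and dendritic cells to show peptides to helper T cells, did not pass in any of 9 rows. H2-Ab1 had medians of 6.38 in Veh and 7.41 in NSC mice (1.07, standard error 0.31, adjusted p = 0.0641), and H2-Aa medians of 5.22 and 6.43 (1.06, adjusted p = 0.0743). WT-NSC mouse 58 reached 9.82 for H2-Ab1, and the next highest NSC mouse 7.85.

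Complement genes rose in 5 of 14 rows (35.7 percent, against 1.84 percent of all rows), with a median of 0.28, and none fell. C4b, a factor that is cleaved and deposited on targets, ran from 8.24 through 8.76 to 9.07 log2 units in Veh mice and from 9.31 through 9.56 to 10.17 in NSC mice. All 10 NSC mice were above all Veh mice, and the difference of 0.91 or 1.88-fold (standard error 0.11) had one of the smallest p-values (adjusted p = 0.000636 from limma). C1qa and C1qb, chains of the factor that starts the cascade and products of microglia, rose by 0.44 and 0.49, and Itgb2, the shared chain of complement receptors, by 0.34.

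Chemokines and their receptors rose in 8 of 21 rows (38.1 percent, against 1.84 percent of all rows), with a median of 0.23. Cxcl10, an interferon-induced attractant of T cells, ran from 5.57 through 5.81 to 6.01 log2 units in Veh mice and from 6.14 through 7.01 to 7.65 in NSC mice. The Veh mice were tightly grouped and the NSC mice widely spread, with standard deviations of 0.13 and 0.48 (n = 10 each). The difference was 1.13 or 2.19-fold (standard error 0.15, adjusted p = 0.000636). Ccl5, which attracts T cells and monocytes, was also apart in all mice, from 5.51 to 6.40 in Veh and 6.43 to 8.66 in NSC mice (1.17, standard error 0.22). Cxcl9 rose by 0.96 (adjusted p = 0.0467), with a range of 5.62 to 8.54 in NSC mice, and it missed the threshold without mouse 59 (adjusted p = 0.0572). Cxcl13, an attractant of B cells, rose by 0.85 (standard error 0.18), Ccl3 by 0.68 and Cxcl16 by 0.35. The receptor Cxcr4, which guides grafted and immune cells, had medians of 6.89 and 7.09 and did not pass (0.26, adjusted p = 0.0663). Of the inflammatory cytokines and inflammasome genes, 3 of 20 rows rose (15 percent), with a median of 0.01. These were Casp4, an inflammatory caspase (0.44, standard error 0.07), Csf1, the growth factor of microglia (0.32), and Nfkbia, the inhibitor of NF-κB (0.25).

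**Figure D2:**
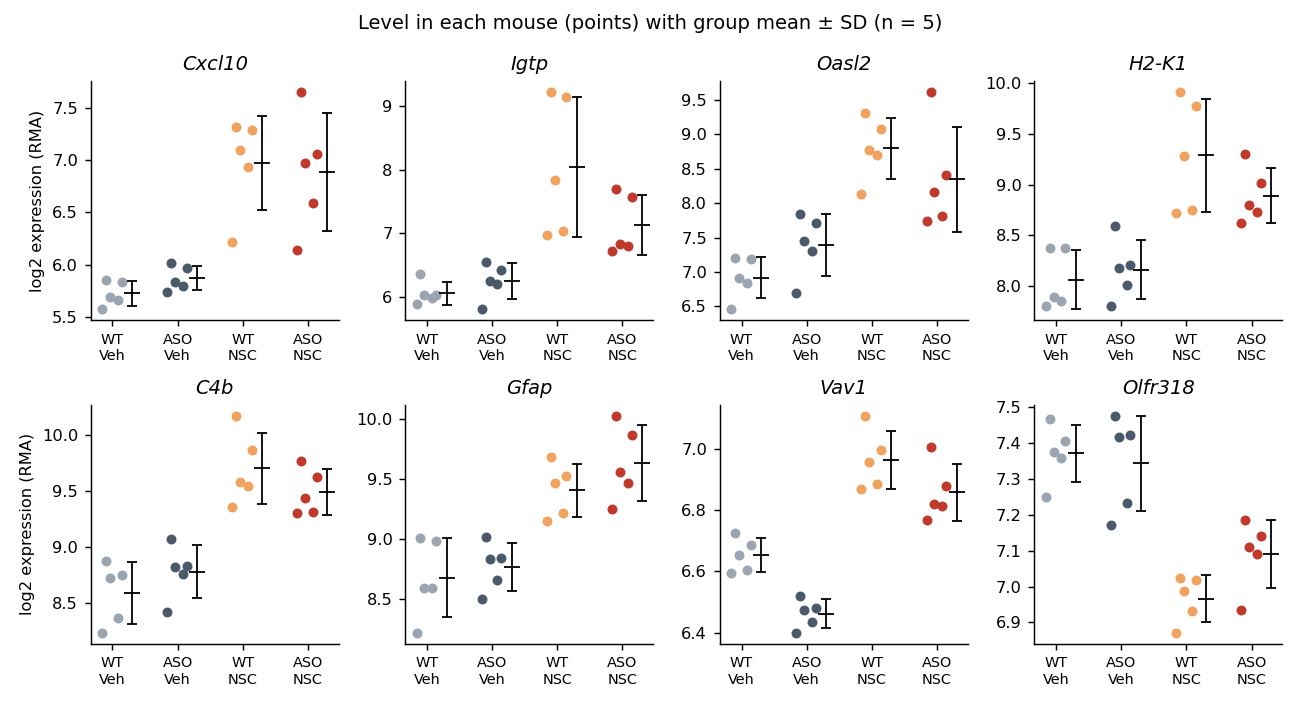
Level of 8 genes in each mouse (points, log2 units) with the mean and SD of each group of 5 (bars). In Cxcl10, Igtp, H2-K1, C4b, Gfap and Vav1 all NSC mice lie above all Veh mice; Oasl2 ranges from 6.46 to 7.84 in Veh and 7.74 to 9.62 in NSC mice, and Olfr318 is lower in NSC mice.

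The smallest p-values among rows that rose did not all belong to interferon genes. Vav1, which relays antigen receptor signals in leukocytes, had the smallest of all (adjusted p = 0.000302). It ran from 6.40 through 6.56 to 6.73 in Veh and from 6.77 through 6.88 to 7.11 in NSC mice, a small difference of 0.35 (standard error 0.04) with a very narrow spread. Calcrl, a receptor for the vasodilator peptides CGRP and adrenomedullin and a gene of endothelial cells, ran from 6.64 to 7.15 in Veh and from 7.19 to 7.95 in NSC mice (0.64, standard error 0.08, adjusted p = 0.000636). Msn, moesin, which ties membranes to actin, ran from 8.35 to 8.56 and from 8.69 to 9.13 (0.40, standard error 0.05) in 1 of its 2 rows. These 3 genes showed no overlap between treatments. Trav9d-3, a T cell receptor variable segment with several near copies, rose by 0.93 in 1 of its 5 rows.

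Genes of microglia that define the resting state rose in 2 of 21 rows (9.52 percent, against 1.84 percent of all rows), with a median of 0.12. These were Csf1r, the receptor for Csf1, by 0.26 and the adaptor Tyrobp by 0.36. Siglech and Entpd1 did not pass with 20 arrays (0.19 and 0.18). Genes of disease-associated microglia rose in 7 of 24 rows (29.2 percent, median 0.20). Lgals3bp, a secreted lectin-binding protein, ran from 7.78 to 8.82 in Veh and from 8.54 to 9.45 in NSC mice (0.79, standard error 0.13), with both of its rows called. Cst7 rose by 0.48, the protease Ctss by 0.45 and the receptor Axl by 0.20. Cst7 and Ctss missed the threshold without mouse 59 (adjusted p = 0.0537 and 0.0503). Among brain border macrophages 1 of 10 rows rose, Mrc1 (0.25, adjusted p = 0.042). T cell and cytotoxic lymphocyte genes did not pass in any of 22 rows, and their median was -0.0020. Cd3g had medians of 4.20 and 4.47 and reached 5.97 only in WT-NSC mouse 58. In the list of B cells 1 of 17 rows rose (5.88 percent), Xbp1, a factor of the unfolded protein response in many cells (0.16, adjusted p = 0.0499 from limma). In bulk tissue, more cells of a type and more RNA per cell cannot be told apart.

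Reactive astrocyte genes rose in 8 of 31 rows (25.8 percent, against 1.84 percent of all rows) and none fell (median 0.20). Gfap, the intermediate filament of astrocytes, ran from 8.21 through 8.74 to 9.01 log2 units in Veh mice and from 9.15 through 9.49 to 10.03 in NSC mice. The groups did not overlap, and the difference was 0.80 or 1.74-fold (standard error 0.11, adjusted p = 0.000924). It was highest in mouse 59, which had the lowest value of the NSC mice for Cxcl10 and Ifit1, and WT-NSC mouse 53 was the lowest of the NSC mice at 9.15. Osmr, the receptor of the cytokine oncostatin M, rose by 0.42 and S1pr3, a receptor of sphingosine-1-phosphate, by 0.31. Cxcl10 also stands in this list. Of the genes that mark astrocytes in general, 3 of 21 rows rose (median 0.14), the water channel Aqp4 by 0.40 (standard error 0.06), F3 by 0.22 and the gap junction protein Gja1 by 0.26. Slc1a2, the glutamate transporter GLT-1, had medians of 10.81 and 10.80 (-0.01, standard error 0.04).

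In the oligodendrocyte lineage, 1 of 16 rows of mature cells rose, Apod (0.28), and 2 of 18 rows of progenitors, the transcription factors Olig2 (0.40, standard error 0.09, adjusted p = 0.0236) and Olig1 (0.22). The risen rows were 6.25 percent of the mature list and 11.1 percent of the progenitor list, against 1.84 percent of all rows. Olig2 ran from 7.94 to 8.60 in Veh and from 8.44 to 8.94 in NSC mice, with 6 of 10 NSC mice above every Veh mouse. With litter as a fixed block its difference was 0.0075. Within litter 3, WT-NSC mouse 53 (8.44) lay between ASO-Veh mice 46 (8.30) and 47 (8.60). The lists had medians of 0.17 and 0.10. Neural stem and progenitor genes rose in 2 of 17 rows (median 0.08), Tnc, an extracellular glycoprotein (0.43, standard error 0.08), and Vcam1, an adhesion protein also found on endothelium (0.37). Fabp7 and Egfr, marks of radial glia and of dividing progenitors, did not pass (0.30 and 0.19). No row of the immature neurons passed among 14, and Dcx, the microtubule protein of migrating neurons, had medians of 8.04 and 7.86 (-0.11, adjusted p = 0.435). Proliferation genes rose in 4 of 29 rows and fell in 1 (median 0.10). Top2a, a topoisomerase of dividing cells, had medians of 5.11 and 5.52 (0.40, standard error 0.07), and Prc1, a protein of the mitotic spindle, was higher in all 10 NSC mice (0.33, standard error 0.05), both at dim levels. The S-phase enzyme Tk1 fell by 0.23.

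**Figure D3:**
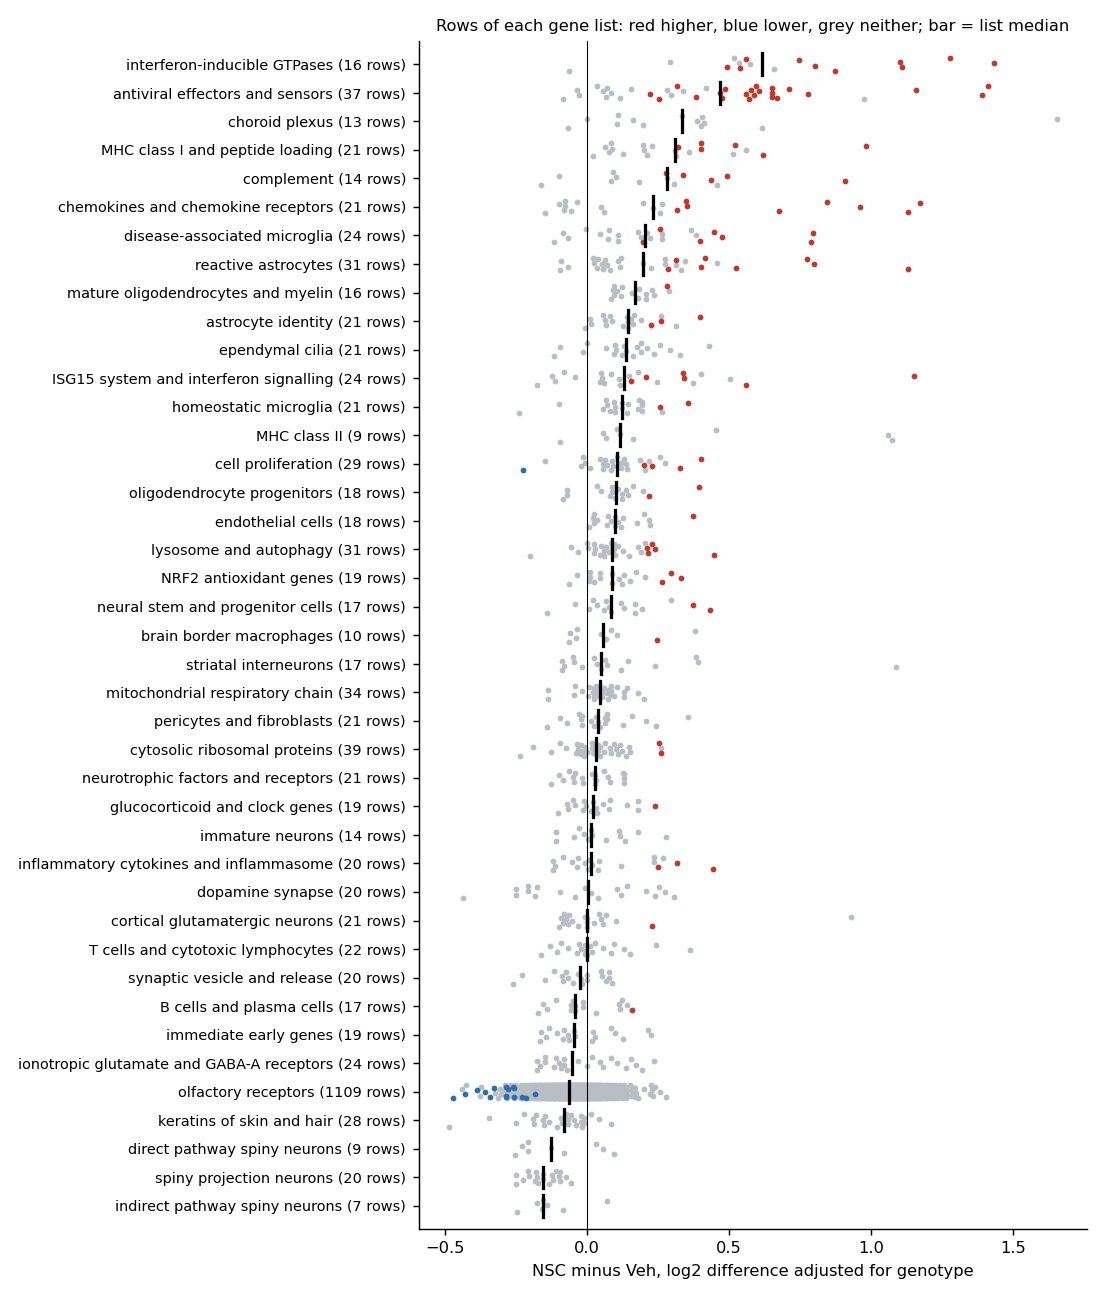
Log2 difference between NSC and Veh mice (x axis) for every row of 41 gene lists, ordered by the list median (bar). Red rows were higher, blue rows lower and grey rows did not pass. The interferon-inducible GTPases (median 0.62) and antiviral effectors (0.47) lie at the top, the choroid plexus (0.33) has no called row, and the spiny neuron lists lie at the bottom (-0.16 for spiny projection neurons).

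Of the neuronal and synaptic lists, 1 row passed the test. Spiny projection neuron genes had a median of -0.16 with no call among 20 rows, and without mouse 59 the median was -0.10. All 20 differences were below 0. The median was -0.09 in WT and -0.26 in ASO mice, the latter with mouse 59 included, and this difference between genotypes was not tested for the list. The signalling subunit Gng7 had medians of 11.66 and 11.38 (-0.25, adjusted p = 0.111), the dopamine receptor Drd1 of 10.29 and 10.16, and Drd2 of 11.17 and 11.12. Drd1 and Drd2 were both lowest in mouse 59, at 9.19 and 10.33, where the next lowest NSC mice had 9.88 and 10.87. Interneuron genes had a median of 0.05 and no call among 17 rows. Among cortical glutamatergic neuron genes, 1 of 21 rows rose (4.76 percent, against 1.84 percent of all rows). It was the transcription factor Rorb (0.23, adjusted p = 0.0292 from limma). Rorb was highest in mouse 59 and missed the threshold without it (adjusted p = 0.0503). Slc17a7, the vesicular glutamate transporter of cortical neurons, ranged over 7.24 to 10.63 in Veh and 8.20 to 10.52 in NSC mice, with no difference past its spread (0.06, standard error 0.37). The lists of the dopamine synapse, synaptic vesicle release, glutamate and GABA-A receptors and immediate early genes held no called row among 20, 20, 24 and 19. Th, the enzyme that limits dopamine synthesis, had medians of 7.28 and 7.37 (0.24, standard error 0.13, adjusted p = 0.3).

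Neurotrophic factors and receptors had no call among 21 rows and a median of 0.03. Bdnf, the growth factor that supports neurons through the receptor Ntrk2, had medians of 5.94 and 5.96 and a difference of 0.03 (standard error 0.05, adjusted p = 0.769). Gdnf differed by -0.13 and Ntrk2 by 0.06. Of antioxidant genes driven by NRF2, 3 of 19 rows rose, the cystine transporter Slc7a11 (0.33), the quinone reductase Nqo1 (0.29, adjusted p = 0.0397) and Nfe2l2, which encodes NRF2 (0.26, adjusted p = 0.0487). The 3 rows were 15.8 percent of the list, against 1.84 percent of all rows. Without mouse 59 only Slc7a11 passed. Lysosome and autophagy genes rose in 5 of 31 rows (median 0.09), among them the membrane protein Lamp2 (0.22), the protease Ctsl (0.24) and the cholesterol carrier Npc2 (0.23). Respiratory chain genes had no call among 34 rows (median 0.04). Of 39 ribosomal protein rows, 2 were called higher (5.13 percent), Rps3 and Rpl10a, by 0.26 and 0.25, but neither without mouse 59. Tsc22d3, a target of glucocorticoids, rose by 0.24, alone among 19 rows of its list (5.26 percent).

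Choroid plexus markers had a median of 0.33 and no call among 13 rows, and their mean level overlapped fully between treatments, from 6.21 to 7.51 log2 units in Veh and from 6.34 to 7.43 in NSC mice. The medians were 6.41 and 7.22, so low values were more frequent in Veh mice and high values in NSC mice. Ependymal cilia genes had a median of 0.14 and no call among 21 rows. Endothelial genes rose in 1 of 18 rows, Vcam1 (5.56 percent, against 1.84 percent of all rows), and genes of pericytes and fibroblasts in none of 21. When the mean levels of the choroid plexus list and of the cortical list were added to the design, 66 rows were higher and 6 lower. In that fit the antiviral list kept 14 called rows and a median of 0.47, and the GTPases kept 3 called rows and a median of 0.65.

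**Figure D4:**
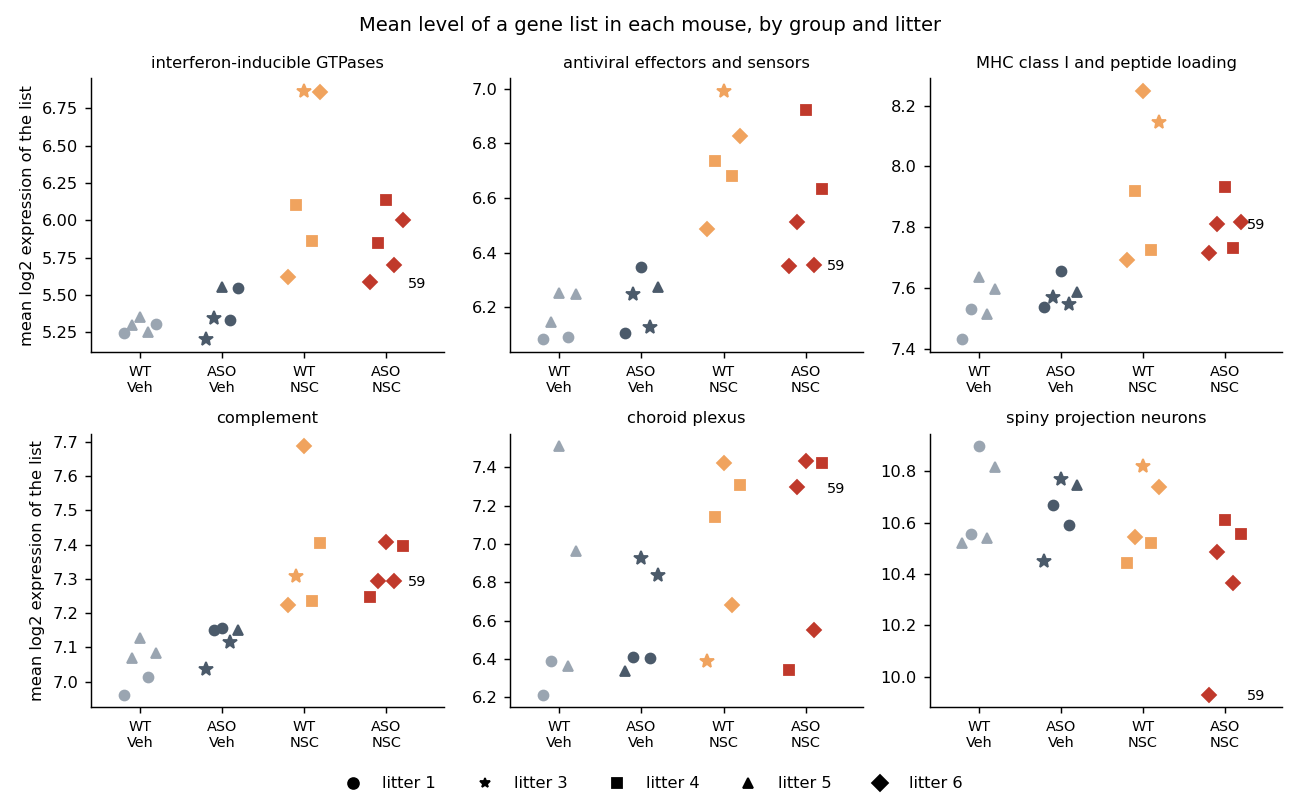
Mean log2 level of 6 gene lists in each mouse by group, with a symbol for each litter and mouse 59 marked. The GTPase, antiviral, MHC class I and complement means of all 10 NSC mice lie above those of all 10 Veh mice, whereas the choroid plexus and spiny neuron means overlap; within litter 3 (stars), the WT-NSC mouse has a GTPase mean of 6.87 and the ASO-Veh mice have 5.35 and 5.20.

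Of the 42 lists, 4 immune lists had mean levels that kept the mice of the 2 treatments apart. The lists were chosen with earlier results of these data known. These 4 also hold rows already given as apart, such as Igtp, Herc6, B2m and C4b. The separation of the means thus partly repeats those rows and is no further support. GTPase means ran from 5.20 through 5.32 to 5.55 in Veh and from 5.59 through 5.93 to 6.87 in NSC mice. Mouse 59 had the lowest NSC value and mouse 53 the highest. Antiviral means ran from 6.08 to 6.35 and from 6.35 to 6.99, with all 10 NSC mice above all Veh mice by a margin smaller than this rounding. MHC class I means ran from 7.43 to 7.66 and from 7.69 to 8.25, and complement means from 6.96 to 7.16 and from 7.22 to 7.69. The reactive astrocyte mean was above every Veh mouse in 9 of 10 NSC mice, and the exception was mouse 53. Within litter 3, WT-NSC mouse 53 and the ASO-Veh mice 46 and 47 had 7.31, 5.79 and 5.74 for Cxcl10, and 9.14, 6.26 and 5.81 for Igtp. The same mice had 9.78, 8.01 and 8.18 for H2-K1, 9.86, 8.43 and 8.83 for C4b, and 6.96, 6.52 and 6.48 for Vav1. Gfap was less apart there, at 9.15, 8.49 and 9.01. In each of these genes all 10 NSC mice lay above all Veh mice. The order within litter 3 was therefore fixed by the choice of genes and is no check on litter. These 3 mice also differ in genotype, mouse 47 is one of those whose sex genes went against the label, and their choroid plexus means of 6.39, 6.93 and 6.84 ran against the direction of the whole comparison.

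The 114 rows that fell were small in size and dim. Of these, 61.4 percent had a mean level under 6 log2 units, against 37.4 percent of all rows and 8.33 percent of the risen rows. Olfr318, an olfactory receptor, had the smallest p, and ran from 7.17 through 7.39 to 7.47 in Veh and from 6.87 through 7.02 to 7.18 in NSC mice (-0.33, standard error 0.05, adjusted p = 0.00188). In this row 9 of 10 NSC mice lay below every Veh mouse. Asph, an aspartate hydroxylase of the endoplasmic reticulum, ran from 6.93 to 7.28 and from 6.68 to 6.92, with no overlap (-0.28, standard error 0.05, adjusted p = 0.00572), in 1 of its 2 rows. The small nucleolar RNA Snord88a was also apart (-0.31). Taar6, a trace amine receptor of the nose, fell by 0.28, the lipocalin Lcn11 by 0.33 and S100a7a by 0.24. The largest falls were those of Olfr765 (-0.47), the hair keratin-associated Krtap5-4 (-0.47), Apol7b (-0.44), Olfr347 (-0.43) and Krtap12-1 (-0.39). In Olfr765 the ranges overlapped, from 4.66 to 5.58 in Veh and from 4.26 to 5.31 in NSC mice.

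Olfactory receptors, which are largely silent outside the nose and serve here as dim rows, fell in 16 of 1109 rows (1.44 percent, against 0.485 percent of all rows), with a median of -0.06, and none rose. Without mouse 59, 4 of these rows were lower. Their median level was 3.68 log2 units. Keratins of skin and hair had a median of -0.08 and no call among 28 rows. The median difference of all rows was below 0 in dim rows and above 0 in brighter ones, without an even order. It was -0.04 for rows under 4 log2 units, -0.06 for those of 4 to 5, -0.05 for 5 to 6, 0.04 for 7 to 8 and for 8 to 10, and 0.02 for rows above 10. The part of this shift in the falls of dim rows was not tested. Of 20159 rows of protein-coding genes, 413 rose (2.05 percent, against 1.84 percent of all rows) and 80 fell (0.397 percent, against 0.485 percent). Of 1973 rows of long noncoding RNAs, 10 rose (0.507 percent) and 19 fell (0.963 percent). Of 506 microRNA rows none rose and 5 fell (0.988 percent).

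Genes that the study follows gave mixed results in the pooled comparison. The study had adjusted its values for sex and litter and left out mouse 59 before its network, which the main fit did not do. The main-fit values here can therefore not be set directly against its modules. Ly6k fell by 0.18 (adjusted p = 0.0378), in 1 of its 2 rows, and Il10ra, a receptor chain for interleukin 10, rose by 0.33 (adjusted p = 0.0283), whereas Il2ra differed by 0.03. Cp, the copper carrier ceruloplasmin, had medians of 7.25 and 7.57 and missed the threshold (0.35, standard error 0.09, adjusted p = 0.0563). Of the hub genes of the study's module M1, C4b, H2-K1, Eif2ak2, Herc6 and Nqo1 rose, as given above. Of the same hubs, Nat9 (0.03), Mtg2 (0.02), Zfand6 (0.06) and Mcmbp (0.06) differed by less than the SD of Veh mice. Krt25, a hub of its module M18 that is given below, did not pass. Cdhr3 (0.33), Elavl4 (0.24), Dnajc30 (0.14), Foxj1 (0.12) and Bloc1s1 (0.12) did not pass either. With litter as a fixed block, which rests on the 3 mice of litter 3, several of these estimates were different and none passed. Nat9 then had 0.45, Mtg2 0.26, Zfand6 0.37 and Mcmbp 0.39. The sign turned for Elavl4 (-0.43), Cp (-0.11), Bloc1s1 (-0.092) and Dnajc30 (-0.078).

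The effect of NSCs was compared between the genotypes by an interaction term. It called 0 of 23525 rows in limma, with 1010 at an unadjusted p under 0.05 and a smallest adjusted p of 0.922. The smallest unadjusted p-value from limma, 5.35e-05, belonged to the hair keratin Krt25, with 0.20 in ASO and -0.31 in WT mice. Mgat4f followed with 0.28 and -0.28, and 1700028B04Rik with -0.36 and 0.19. Of the 546 called rows, 31 had an unadjusted interaction p under 0.05. In the interferon lists the point estimates were larger in WT than in ASO mice. The median was 0.83 in WT and 0.50 in ASO mice for the GTPases and 0.56 and 0.34 for the antiviral genes. For MHC class I it was 0.34 and 0.21, and for complement 0.34 and 0.22. WT-NSC mice 53 and 58 had mean GTPase levels of 6.87 and 6.86 and MHC class I means of 8.15 and 8.25. WT-NSC mice 54, 70 and 74 had GTPase means of 5.62, 6.10 and 5.86, within the ASO-NSC range of 5.59 to 6.13. Their MHC class I means were 7.69, 7.92 and 7.73. In the antiviral list mice 53 and 58 stood less apart (6.99 and 6.83, against 6.49, 6.74 and 6.68). The interaction without both of these mice was not tested. Irgm2 rose by 1.84 in WT (standard error 0.29) and by 0.72 in ASO mice (standard error 0.29), with an unadjusted interaction p of 0.0124 that did not survive adjustment (adjusted p = 0.983). Igtp had 1.99 and 0.88, and Oasl2 1.88 and 0.95. Gfap (0.73 and 0.87), Calcrl (0.63 and 0.65), Ifit2 (0.56 and 0.59) and Vav1 (0.31 and 0.40) had nearly equal estimates.

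**Figure D5:**
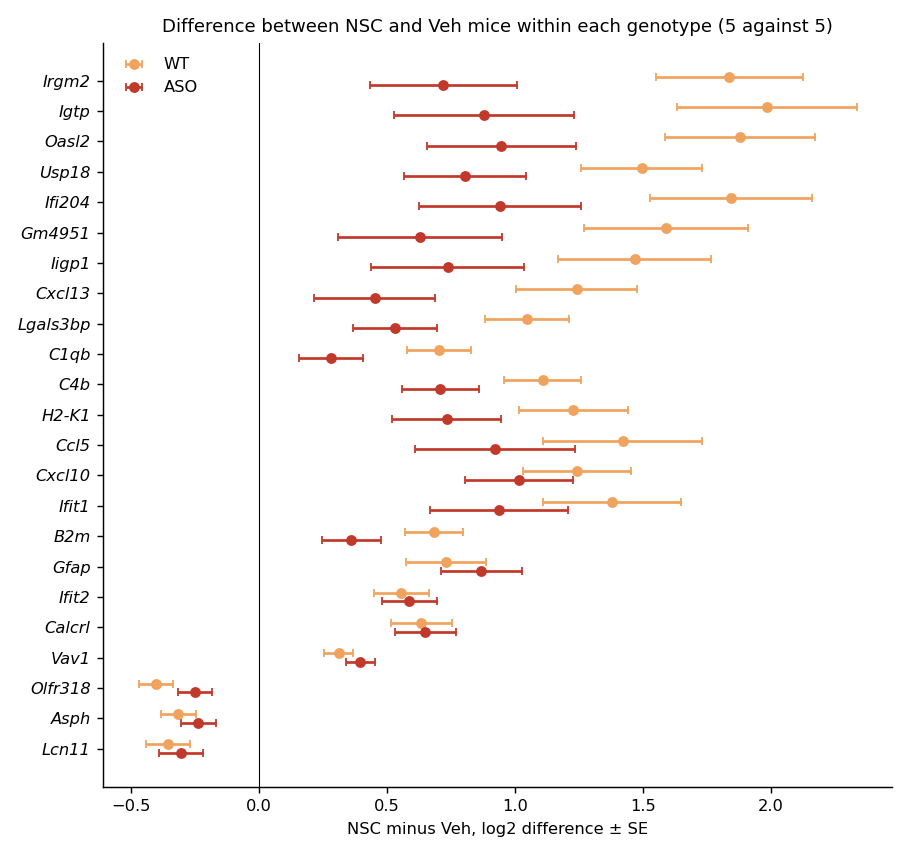
Log2 difference between NSC and Veh mice within WT and within ASO mice (5 against 5, points) with the standard error (bars) for 23 genes. Irgm2 is 1.84 in WT and 0.72 in ASO mice, whereas Calcrl is 0.63 and 0.65, and no gene passed the test of the difference between genotypes.

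ASO-NSC mouse 59 was higher than every other mouse in genes of hypothalamus and thalamus, named here after their values were seen. Pmch, the precursor of melanin-concentrating hormone in the lateral hypothalamus, was at 8.99 log2 units, with the other 19 mice between 3.88 and 4.27. Hcrt, the precursor of orexin from the same region, was at 8.12 against 5.46 to 5.94. Slc17a6, the glutamate transporter of thalamus and hypothalamus, was at 10.75 against 7.42 to 9.54, and Tcf7l2, a transcription factor of thalamus, at 9.02 against 6.77 to 8.14. Other hypothalamic genes set it less apart, with Avp at 10.33 against 6.97 to 9.96 and Oxt at 9.61 against 6.10 to 9.13. High levels of such genes were thus not limited to mouse 59. Leaving mouse 59 out raised the differences of Cxcl10 from 1.13 to 1.22, of Ifit1 from 1.16 to 1.25, of Cxcl13 from 0.85 to 0.94 and of Oas1g from 0.98 to 1.15, and Oas1g then passed (adjusted p = 0.0168). It lowered that of Trav9d-3 from 0.93 to 0.82. In this fit 11 of the 16 GTPase rows and 23 of the 37 antiviral rows were called, 1 more of each than with all mice. Without mouse 59, calls went from 8 to 6 for chemokines and for reactive astrocytes, from 7 to 4 for disease-associated microglia, from 5 to 1 for lysosome genes, from 4 to 2 for proliferation, and from 3 to 1 for astrocyte identity and for NRF2 genes. Inflammatory cytokines went from 3 to 2, oligodendrocyte progenitors from 2 to 1, and ISG15 and MHC class I each from 6 to 5. Ribosomal proteins, border macrophages, B cells, cortical neurons and glucocorticoid genes had none, and homeostatic microglia had 3, 1 more than with all mice.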

How the data were processed

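Striatal RNA of 20 mice was measured on the Affymetrix Mouse Gene 2.0 ST platform. The authors corrected background, normalized and summarized the arrays with RMA in the oligo package, and the deposited values are log2 intensities per transcript cluster, for which precision depends on how many mice there are. Symbols came from the platform annotation and were matched to RefSeq by Entrez identifier in 23329 of 23525 rows, which changed no symbol. A linear model of genotype and treatment was fitted to each row (limma 3.58.1, R 4.3.3), and two-sided p-values received a Benjamini-Hochberg adjustment over all rows. Residual and prior degrees of freedom came to 21.2. A gene with several rows is given by the row with the smallest p. Named genes were the 12 rows with the largest differences and the 6 with the smallest p per direction, and up to 4 members of each of 42 lists. Genes named by the study, 3 rows by interaction and 5 rows moved by mouse 59 were added. Promoter sequences came from RefSeq (GRCm38.p6) and figures used matplotlib 3.10.9 in Python 3.11.15. The code was tested on simulated data. Members and lists were chosen with earlier results of these data known. Alternatives covered mouse 59, sex, litter, RNA integrity, group coefficients, prior, centring, filters, 1 row per gene, no genotype term and leaving out each mouse. Tissue marker covariates and the removal of mice 59 and 47 together were added after the data were seen.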

Additional observations from a re-analysis of the deposited data

Results flagged for a closer look

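Named genes were screened for a mouse that stands apart from the other 9 of its treatment, by a gap test that flags about 1 in 20 groups by chance. In 420 groups tested, 40 values were set apart, with 9 in ASO-NSC mouse 59 and 8 in WT-NSC mouse 58.

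In mouse 59, neuronal genes of the striatum were low among the NSC mice, with 9.19 for Drd1, 10.33 for Drd2, 7.84 for Chrm4, 10.53 for Gnal, 10.75 for Gng7, 6.58 for Sp9, 11.16 for Camk2a and 9.02 for Cplx2, and Maob, a monoamine oxidase of astrocytes, was high at 9.83 log2 units. In mouse 58, immune genes were high among the NSC mice, with 9.82 for H2-Ab1, 8.05 for H2-Eb1, 6.86 for H2-Oa, 5.97 for Cd3g, 9.04 for C1qa, 8.14 for Itgb2, 7.55 for Cst7 and 9.23 for Tyrobp.

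In other NSC mice, Foxj1 (6.65), Eno4 (6.37) and Snord88a (5.81) were low in mouse 73 and Dusp1 (8.33) in mouse 56. Krt84 (4.16) was low in mouse 57, Sdc1 (5.66) was low and Top2a (5.95) high in mouse 70. In mouse 53, Nat9 (6.81) and Zfand6 (8.81) were high and Vtn (9.64) was low.

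Among the Veh mice, Arc (10.37) and Unc13a (10.93) were high and Egfr (7.68) low in mouse 62. In mouse 47, Cd36 (5.48) was high, and Drd3 (8.40) and Sv2c (10.02) were low. In mouse 46, Pdyn (9.71) was high and Cd22 (5.23) low. In mouse 64, Tsc22d3 (7.65) was high and Slc4a1 (5.69) low. Mcm6 (6.65) and Stmn1 (8.52) were high in mouse 67, and D030024E09Rik (5.36) in mouse 66.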

How the results depend on the processing

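Against 432 higher and 114 lower rows, limma gave 232 and 53 without mouse 59, and 58 and 5 without the 5 arrays whose sex genes differ from the label, a fit of 15 arrays. Litter as a fixed block left 1 and 0 rows, and as a random block 412 and 105 (within-litter correlation 0.0014). Leaving out a whole litter gave 29 and 2 (litter 1), 549 and 247 (litter 3), 279 and 73 (litter 4), 333 and 95 (litter 5) and 97 and 6 (litter 6). Arrays centred on their medians gave 231 and 229, rows with a mean of at least 6 gave 709 and 98 of 14728, and the choroid plexus and cortical list means in the design gave 66 and 6. Leaving out 1 mouse moved the counts between 161 and 867 higher rows and between 20 and 301 lower rows, the lowest without WT-Veh mouse 66 and the highest without WT-Veh mouse 67. At least 1 of the counts moved by over 1.5 times on leaving out any 1 mouse other than 53, 54, 74 and 75. Without mouse 47 alone the counts were 532 and 246, and without mice 59 and 47 together they were 299 and 142. Labelled or gene-based sex, RNA integrity, group coefficients, the trended prior, the more variable rows, 1 row per gene and no genotype term kept both counts within 1.5 times. The interaction called 0 rows in every fit that could estimate it. With litter as a fixed block, 60 of the 210 named rows changed sign, of which 56 had not passed the test. The 4 called ones were Ccdc187 (0.20), Xbp1 (-0.075), Olig1 (-0.021) and Ctsl (-0.12), and none of them was called there. The causes of these changes were not tested. Litter and treatment cannot be told apart outside litter 3, values of dim rows near background limit the fallen rows, and p-values measure the spread between these mice.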

Other observations

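Several risen genes stood in none of the lists, and those given here were chosen after their values were seen, with limma differences over 20 arrays. Genes of myeloid cells were among them. Ly86, a partner of a Toll-like receptor relative, ran from 8.54 through 8.73 to 9.02 log2 units in Veh mice and had a median of 9.24 and a highest level of 9.72 in NSC mice (0.50, standard error 0.079, adjusted p = 0.00282). Of the NSC mice, 9 of 10 lay above every Veh mouse. Pld4, an exonuclease of endolysosomes in microglia, rose by 0.52, Gpr84, a receptor of activated microglia, by 0.53, Mpeg1, a pore-forming protein of macrophages, by 0.56, and Cybb, the catalytic subunit of the phagocyte oxidase, by 0.82. Ifi30, a thiol reductase used in antigen processing, was higher in all 10 NSC mice than in any Veh mouse, from 6.95 to 7.30 and from 7.45 to 8.35 (0.53, standard error 0.084). Cd274, which encodes the checkpoint ligand PD-L1, rose by 0.70, with an adjusted p of 0.0385 that became 0.0563 without mouse 59.

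Genes outside the immune system also rose. Postn, a matrix protein of fibroblasts, had medians of 6.29 in Veh and 7.06 in NSC mice (0.63, adjusted p = 0.0248), and Angpt1, a ligand of the endothelial receptor Tek, medians of 5.49 and 6.16 (0.48, adjusted p = 0.0273). Both ranges overlapped between treatments.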
